A study of Mus musculus with 2 samples.

Results

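Transcripts of 7 genes that mark T cell exhaustion were followed across the T and natural killer (NK) cells of mouse liver metastases, namely Pdcd1, Ctla4, Lag3, Tigit, Havcr2, Cd160 and Tox. They were taken as a named set, chosen with earlier results of these data known, and all 7 were found once each among the 56941 features of the count tables. Colon carcinoma cells of the metastatic line MC38-LM3b carried either a scrambled hairpin (shScramble, called Ctrl) or 1 hairpin against SLAMF3 (shSLAMF3, called KD), and were injected into the spleen of C57BL/6 mice aged 6 to 8 weeks. After 2 weeks the liver lesions of 3 mice per group were pooled, CD45+ cells were enriched, and each pool gave 1 droplet library read from the 3' end of transcripts. The hairpin sat in the tumor cells only, so every T and NK cell described here is a host cell without it. With 1 pooled library per group there is no replicate, so nothing here was tested. Each interval given is a 95% interval that covers counting error alone, not the spread between mice or between library preparations.

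Exhaustion is the state that T cells enter under lasting antigen exposure, in which several inhibitory receptors are held on the surface at once. Pdcd1 encodes PD-1, which recruits phosphatases to the T cell receptor and its costimulatory receptor. Ctla4 competes with Cd28 for the ligands CD80 and CD86. Lag3 binds MHC class II, Tigit binds the poliovirus receptor CD155 in competition with Cd226, Havcr2 encodes TIM-3, and Cd160 binds the herpesvirus entry mediator. Tox is the nuclear factor that establishes the exhausted chromatin state and is no receptor. In liver, NK cells and type 1 innate lymphoid cells (ILC1) carry Cd160 and Tigit as well, regulatory T cells (Treg) hold Ctla4 constitutively, and Havcr2 is also a gene of macrophages and dendritic cells.

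The start regions of these genes are shown for Pdcd1, which was found in most T cell subsets, for Havcr2, which was near 0 in Tcf7+ Slamf6+ cells, and for Cd160, which of the 7 genes differed most between the libraries in CD8+ T cells. The windows come from a RefSeq table on GRCm38.p6, an older assembly than the GRCm39 of the count tables. Each runs 5′ to 3′ on the strand of the gene from 250 bases before to 50 bases after the annotated start. The table held windows for 5 of the 7 genes, 6 in all because Cd160 has a pair of starts, and none for Lag3 and Tox. Capitals mark the letters GGAAA (the core bound by NFAT factors), TGANTCA (AP-1) or TGTGGTT (RUNX), searched on both strands, and no match overlapped another. The windows lie at chr1:94052504-94052803 on the minus strand for Pdcd1, at chr11:46454681-46454980 on the plus strand for Havcr2, and at chr3:96829302-96829601 and chr3:96814472-96814771 on the minus strand for Cd160.
Pdcd1: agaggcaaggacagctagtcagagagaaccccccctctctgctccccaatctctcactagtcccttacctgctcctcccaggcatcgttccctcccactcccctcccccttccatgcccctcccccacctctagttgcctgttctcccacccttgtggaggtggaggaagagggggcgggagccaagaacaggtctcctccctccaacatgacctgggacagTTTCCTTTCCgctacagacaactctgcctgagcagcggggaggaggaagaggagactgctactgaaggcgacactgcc
Havcr2: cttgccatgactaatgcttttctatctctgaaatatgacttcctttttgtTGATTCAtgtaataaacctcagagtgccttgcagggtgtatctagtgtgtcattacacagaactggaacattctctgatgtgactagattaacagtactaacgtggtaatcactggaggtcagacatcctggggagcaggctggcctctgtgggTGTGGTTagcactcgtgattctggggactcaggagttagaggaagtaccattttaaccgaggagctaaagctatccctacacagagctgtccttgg
Cd160 window 1: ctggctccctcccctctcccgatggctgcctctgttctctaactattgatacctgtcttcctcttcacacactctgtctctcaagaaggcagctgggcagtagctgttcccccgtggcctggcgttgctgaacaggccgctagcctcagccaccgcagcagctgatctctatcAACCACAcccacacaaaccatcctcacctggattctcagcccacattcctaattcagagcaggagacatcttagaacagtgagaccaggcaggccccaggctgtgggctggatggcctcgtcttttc
Cd160 window 2: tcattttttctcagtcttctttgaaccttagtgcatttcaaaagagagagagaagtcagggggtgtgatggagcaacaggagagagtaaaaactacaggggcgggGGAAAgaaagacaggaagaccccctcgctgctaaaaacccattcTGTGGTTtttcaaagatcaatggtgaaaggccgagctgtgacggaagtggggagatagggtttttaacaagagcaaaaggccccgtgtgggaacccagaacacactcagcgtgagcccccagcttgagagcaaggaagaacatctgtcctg
The Pdcd1 window holds 2 adjacent matches to GGAAA beginning at positions -28 and -23 from the start, counted on the printed strand. The Havcr2 window holds TGANTCA at -200 and TGTGGTT at -46. The first Cd160 window holds TGTGGTT at -77, and the second holds GGAAA at -145 and TGTGGTT at -101. Among all 32851 windows of the table, 61.3% hold GGAAA, 7.81% TGANTCA and 5.27% TGTGGTT. A match describes letters and is not a binding site.

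The deposited libraries held 10416 cells and 67207234 UMIs (unique molecular identifiers, 1 per captured transcript) in Ctrl, and 10943 cells and 64444715 UMIs in KD. Filters left 9814 and 10185 cells, with medians of 5412 and 4989 UMIs. Of these, 3651 and 2354 were T and NK cells with medians of 5920 and 4779 UMIs. Only 13 T and NK cells carried a barcode present in both libraries. Ly9, the gene of SLAMF3, had 12 UMIs in 161 tumor-like or fibroblast-like cells of Ctrl and 7 UMIs in 96 such cells of KD, or 5.91 CPM (the UMIs of a gene scaled to a common total, 3.05 to 10.3) against 5.36 CPM (2.15 to 11), so the knockdown could not be seen at this depth. Re-clustering, in which the 7 genes took no part, gave 14 described subsets with 3172 cells in Ctrl and 2167 in KD. The T cell marker list (7 genes) summed to 5305 and 4824 CPM in CD8+ T cells, with none of its genes at 0, and to 628 and 627 CPM in NK-like cells, where the NK cell list (13 genes) reached 7719 and 8519 CPM. The naive-like subset is uncertain, since Cd3e was found in 59.6% of its cells, Cd8a in 27.7% and Cd4 in 6.49%. ILC1-like cells held Ncr1 in 60% of cells, but also Cd3e in 20.9% and Cd8a in 11.3%. Treg-like cells held Foxp3 in 47.7% of cells and Cd4 in 55.8%. A granulocyte list (8 genes) moved with the libraries, at 34.2 CPM in Ctrl and 154 CPM in KD within CD8+ T cells and higher in KD in all 9 subsets compared below. The macrophage or monocyte list (11 genes) stood at 384 and 299.7 CPM in the same cells. The part of either in the differences below was not tested.

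The CD8+ T cells comprised 6 subsets. They were exhausted-like cells led by Ccl3, Ccl4 and Ifng (721 cells in Ctrl, 168 in KD), cycling-like cells (817 and 331), cells led by the replication genes Mcm2 and Mcm3 (380 and 155), effector-like cells led by Ccl5, Gzma and Ly6c2 (482 and 306), Tcf7+ Slamf6+ cells (87 and 48), and a Gzmc+ Gzmd+ group found almost wholly in Ctrl (63 and 1). Outside CD8+ T cells, naive-like (200 and 355), CD4+ (134 and 338), Treg-like (76 and 121) and NK-like cells (152 and 115) were large enough for ratios of the libraries. ILC1-like (15 and 100), Il4+ Zbtb16+ (5 and 97), gamma-delta-like (23 and 14) and Ifit1+ Ifit3+ cells (17 and 18) are given by level only. Between 89.0% and 95.1% of the filtered UMIs of 6 of the genes lay in T and NK cells of Ctrl. In KD the share was 79.3% for Lag3 and between 89.0% and 91.5% for the others of these 6. Havcr2 had the lowest shares, with 59.4% in Ctrl and 33.4% in KD. Macrophages or monocytes held 2775 and 2232 of its UMIs and conventional dendritic cells 421 and 1168.

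Pdcd1 was a transcript of CD8+ and CD4+ T cells and scarcely of naive-like and NK-like cells. In Ctrl it measured 304 CPM (288 to 319.7) in exhausted-like, 283 CPM (265 to 301) in Mcm2+ Mcm3+, 256 CPM (234 to 280.3) in effector-like, 232 CPM (223 to 242) in cycling-like, 222 CPM (182 to 267) in Tcf7+ Slamf6+ and 213 CPM (176 to 256) in CD4+ cells. Each of these subsets overlapped the next in its counting interval. Treg-like cells followed at 66.1 CPM (46.8 to 90.8), below the CD4+ cells without overlap, and naive-like and NK-like cells held 8.54 and 10.1 CPM from 7 and 6 UMIs. In KD the exhausted-like cells again stood first at 296 CPM (266 to 328), but CD4+ cells came next at 274 CPM (248 to 302), again with overlapping intervals. The cycling-like cells held 197 CPM (183 to 212) and the Mcm2+ Mcm3+ cells 234 CPM (209 to 261). Over all CD8+ T cells the level was 260.0 CPM in Ctrl and 225 CPM in KD, a log2 ratio of KD over Ctrl of -0.21 (-0.28 to -0.13). It was -0.24 (-0.36 to -0.12) in cycling-like and -0.27 (-0.46 to -0.09) in Mcm2+ Mcm3+ cells, while in exhausted-like cells the interval held 0, at -0.04 (-0.21 to 0.13). Effector-like cells stood at -0.23 (-0.44 to -0.01), or -0.62 with cells assigned by the marker UMIs in each cell. CD4+ cells went the other way, at 0.36 (0.06 to 0.67), and at 0.17 by marker UMIs.

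Ctla4 was highest in the CD4 lineage. Treg-like cells held 1589 CPM (1488 to 1696) in Ctrl and 2331 CPM (2219 to 2447) in KD, and CD4+ cells 626 CPM (561 to 696) and 756 CPM (713 to 801), and in both libraries these were the first and the second subset with no overlap to the next. Relative to exhausted-like CD8+ cells, the Treg-like level was higher by a log2 ratio of 2.24 (2.12 to 2.36) in Ctrl and 2.43 (2.28 to 2.57) in KD. Among CD8+ cells, Tcf7+ Slamf6+ cells held 419 CPM (364 to 480.1) and 450.1 CPM (384 to 524), exhausted-like cells 336 CPM (319 to 352) and 434 CPM (397 to 472), and cycling-like cells 191 CPM (183 to 199.7) and 282 CPM (265 to 299). Effector-like over exhausted-like cells gave a log2 ratio of 0.09 (-0.04 to 0.22) in Ctrl and -0.32 (-0.50 to -0.13) in KD. The level was higher in KD in CD8+ T cells as a whole, at 0.41 (0.34 to 0.48). That held in cycling-like (0.56, interval 0.45 to 0.67), Mcm2+ Mcm3+ (0.49, interval 0.32 to 0.66), exhausted-like (0.37, interval 0.22 to 0.51), Treg-like (0.55, interval 0.43 to 0.67) and CD4+ cells (0.27, interval 0.10 to 0.45). It did not in effector-like cells, at 358 and 348 CPM and a log2 ratio of -0.04 (-0.21 to 0.13), nor in Tcf7+ Slamf6+ cells (0.10, interval -0.20 to 0.40), and in naive-like cells it was lower in KD, at -0.54 (-1.02 to -0.06) from 67 and 85 UMIs, which became -0.06 under a stricter cell filter.

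Lag3 was highest in the exhausted-like cells. Its level there was 199 CPM (187 to 212) in Ctrl and 221 CPM (196 to 249) in KD, with no overlap to the next subset in either library. Cycling-like over exhausted-like cells gave a log2 ratio of -1.05 (-1.18 to -0.92) in Ctrl and -1.28 (-1.52 to -1.05) in KD, and effector-like over exhausted-like cells -0.72 (-0.93 to -0.51) and -1.33 (-1.66 to -1.01). CD4+ and Treg-like cells held between 65.7 and 90.1 CPM over both libraries, and NK-like and naive-like cells at most 13.5 CPM. CD8+ T cells as a whole held 125 CPM in Ctrl and 116 CPM in KD (-0.11, interval -0.22 to -0.01). Of the 9 subsets with ratios, the interval excluded 0 only in effector-like cells, at -0.46 (-0.79 to -0.13). Outside T cells, plasmacytoid dendritic cells held 120.4 and 112 CPM.

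Tigit was highest by value in Treg-like cells, at 117 CPM (90.4 to 148) in Ctrl and 129 CPM (103 to 158) in KD, and then in CD4+ cells, at 87.1 CPM (64 to 116) and 100.2 CPM (84.8 to 117). These intervals overlapped, and every neighbour further down the order overlapped as well. Exhausted-like cells held 75.1 CPM (67.5 to 83.3) and 85.6 CPM (69.9 to 104), and cycling-like cells 48.9 CPM (44.8 to 53.4) and 48.9 CPM (42.1 to 56.5). Effector-like cells held 78.6 CPM in Ctrl and 54.3 CPM in KD. Their log2 ratio over exhausted-like cells was 0.07 (-0.22 to 0.35) in Ctrl and -0.65 (-1.11 to -0.21) in KD. In CD8+ T cells the libraries did not separate, at 55.5 and 55.3 CPM and a log2 ratio of -0.00 (-0.16 to 0.15). The effector-like cells were lower in KD, at -0.53 (-0.96 to -0.12), or -0.15 by marker UMIs. So were naive-like cells, with 29 UMIs in Ctrl and 18 in KD (-1.57, interval -2.51 to -0.68), and NK-like cells, with 30 and 13 (-0.999, interval -2.06 to -0.02). By marker UMIs the first became -0.26 and the second changed sign, to 0.18, where NK-like cells were not set apart from ILC1-like cells.

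Havcr2 was high in exhausted-like cells and near 0 in Tcf7+ Slamf6+ cells. It measured 316 CPM (299.8 to 332) in exhausted-like cells of Ctrl and 333 CPM (302 to 367) in KD, and 8.06 CPM (2.2 to 20.6) and 13.6 CPM (4.4 to 31.6) in Tcf7+ Slamf6+ cells, from 4 and 5 UMIs. The log2 ratio of the latter over the former was -5.29 (-7.17 to -3.93) in Ctrl and -4.62 (-6.25 to -3.38) in KD. For Pdcd1 the same ratio was -0.45 (-0.75 to -0.17) and -0.13 (-0.46 to 0.20). The Gzmc+ Gzmd+ cells of Ctrl held 345 CPM (303 to 391), and cycling-like cells 181 CPM (173 to 189) and 153 CPM (141 to 166). Treg-like cells showed the widest difference between libraries of the 7 genes in any subset where a gene had at least 50 UMIs, with 158 CPM (128 to 194) in Ctrl and 72.9 CPM (54.3 to 95.9) in KD, a log2 ratio of -1.12 (-1.64 to -0.61) from 91 and 51 UMIs. The macrophage list summed to 214 and 187 CPM in those cells, and its part was not tested. In CD8+ T cells the ratio of Havcr2 was -0.17 (-0.25 to -0.09), or -0.060 by marker UMIs. It was 0.08 (-0.08 to 0.24) in exhausted-like cells, or -0.15 by marker UMIs. In cycling-like cells it was -0.24 (-0.38 to -0.11), or 0.013 by marker UMIs. Mcm2+ Mcm3+ cells stood at 0.18 (-0.02 to 0.37) and effector-like cells at -0.19 (-0.42 to 0.03). Macrophages or monocytes themselves held 105 and 92.2 CPM of Havcr2.

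Cd160 was the gene that differed most between the libraries in CD8+ T cells. It measured 68.9 CPM (65.5 to 72.5) in Ctrl and 128 CPM (121 to 137) in KD, a log2 ratio of 0.90 (0.78 to 1.01). The interval of the ratio lay above 0 in cycling-like cells (57.2 and 120.5 CPM, 1.07, interval 0.90 to 1.25), Mcm2+ Mcm3+ cells (81.8 and 151 CPM, 0.89, interval 0.62 to 1.15), effector-like cells (71.8 and 122 CPM, 0.77, interval 0.43 to 1.11) and exhausted-like cells (84.2 and 129 CPM, 0.62, interval 0.34 to 0.89). In Tcf7+ Slamf6+ cells, which held the highest value of Ctrl at 123 CPM (94 to 158), the ratio was 0.25 (-0.30 to 0.80), and its interval held 0. NK-like cells held 63.9 CPM (45.2 to 87.8) and 99.1 CPM (73.8 to 130.3). Their log2 ratio was 0.63 (-0.00 to 1.28), or 2.35 by marker UMIs. That gate has no ILC1 class, so its NK-like cells can include ILC1-like cells, which numbered 15 in Ctrl and 100 in KD. ILC1-like cells of KD held the highest value of all, 310.1 CPM (259 to 368) from 130 UMIs in 100 cells. CD4+ and Treg-like cells held little of it, with 4 and 23 UMIs and 2 and 2 UMIs. Ctla4 and Tigit, by contrast, were highest by value in those 2 subsets, though for Tigit the CD4+ interval overlapped that of the next subset.

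Tox was found in every subset. Tcf7+ Slamf6+ and CD4+ cells stood first, at 1410.5 CPM (1308 to 1519) and 1265 CPM (1172 to 1364) in Ctrl and 1510.1 CPM (1387 to 1641) and 1481 CPM (1421 to 1544) in KD, and exhausted-like cells held 1205 CPM (1174 to 1236) and 1041 CPM (984 to 1099.6). Effector-like cells held 1169 CPM in Ctrl and 932 CPM in KD. Their log2 ratio over exhausted-like cells was -0.04 (-0.11 to 0.03) in Ctrl and -0.16 (-0.27 to -0.05) in KD. Naive-like and NK-like cells held 255 and 345 CPM in Ctrl. Being abundant, Tox gave narrow intervals around small ratios. It was lower in KD in effector-like (-0.33, interval -0.43 to -0.23), exhausted-like (-0.21, interval -0.30 to -0.12) and all CD8+ T cells (-0.07, interval -0.11 to -0.04). It was higher in KD in naive-like (0.42, interval 0.18 to 0.65), CD4+ (0.23, interval 0.10 to 0.35) and Treg-like cells (0.24, interval 0.05 to 0.43), and NK-like cells held 345 and 344 CPM. By marker UMIs the ratio became -0.14 in naive-like and 0.80 in NK-like cells, the latter not set apart from ILC1-like cells. As a mean over cells it became -0.0093 in Treg-like cells.

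**Figure D1:**
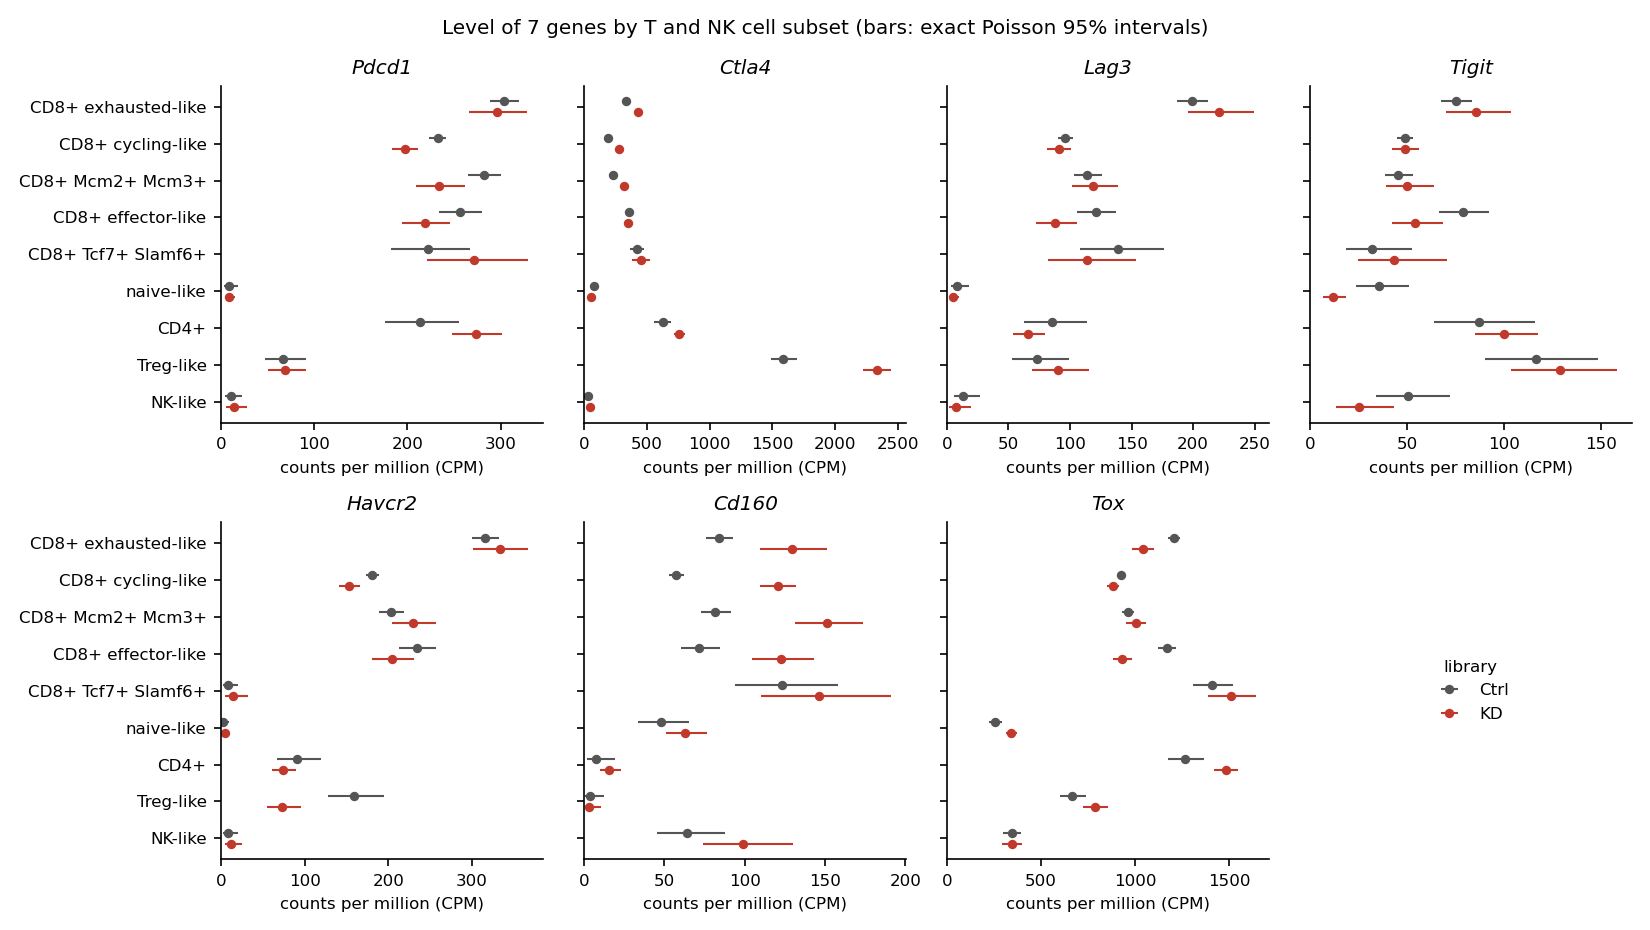
Level of the 7 genes in 9 T and NK subsets, in CPM on the x axis of each panel (scales differ between panels), with Ctrl in grey and KD in red; points are summed UMIs over the subset total and bars exact Poisson 95% intervals. Lag3 is highest in exhausted-like cells and Ctla4 in Treg-like cells, Havcr2 is near 0 in Tcf7+ Slamf6+ cells, and the red Cd160 points lie right of the grey ones in the CD8+ subsets.

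The 7 genes were then set against all genes measured in the same cells. In CD8+ T cells 9.34% of the 11917 genes with at least 50 UMIs differed past 1.5-fold in either direction, and 1 of the 7 genes did, Cd160. The median log2 ratio was -0.07 for the 7 genes and -0.03 for all genes. In exhausted-like cells the share of all genes was 10.7% and in cycling-like cells 10%, in Mcm2+ Mcm3+ cells 8.8% and in effector-like cells 7.37%, and in each of these 1 of 7 genes, again Cd160, was past the fold. In Tcf7+ Slamf6+ cells (16.7% of all genes) none of the 5 genes with enough UMIs passed, in naive-like cells (12%) none of 3, and in CD4+ cells (11.7%) none of 6. In Treg-like cells (19.8%) Havcr2 was past it among 6, and in NK-like cells (13.3%) Cd160 among 2. With 7 genes, 1 past the fold is close to the background of each CD8+ subset, and these counts set the genes apart in no subset.

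**Figure D2:**
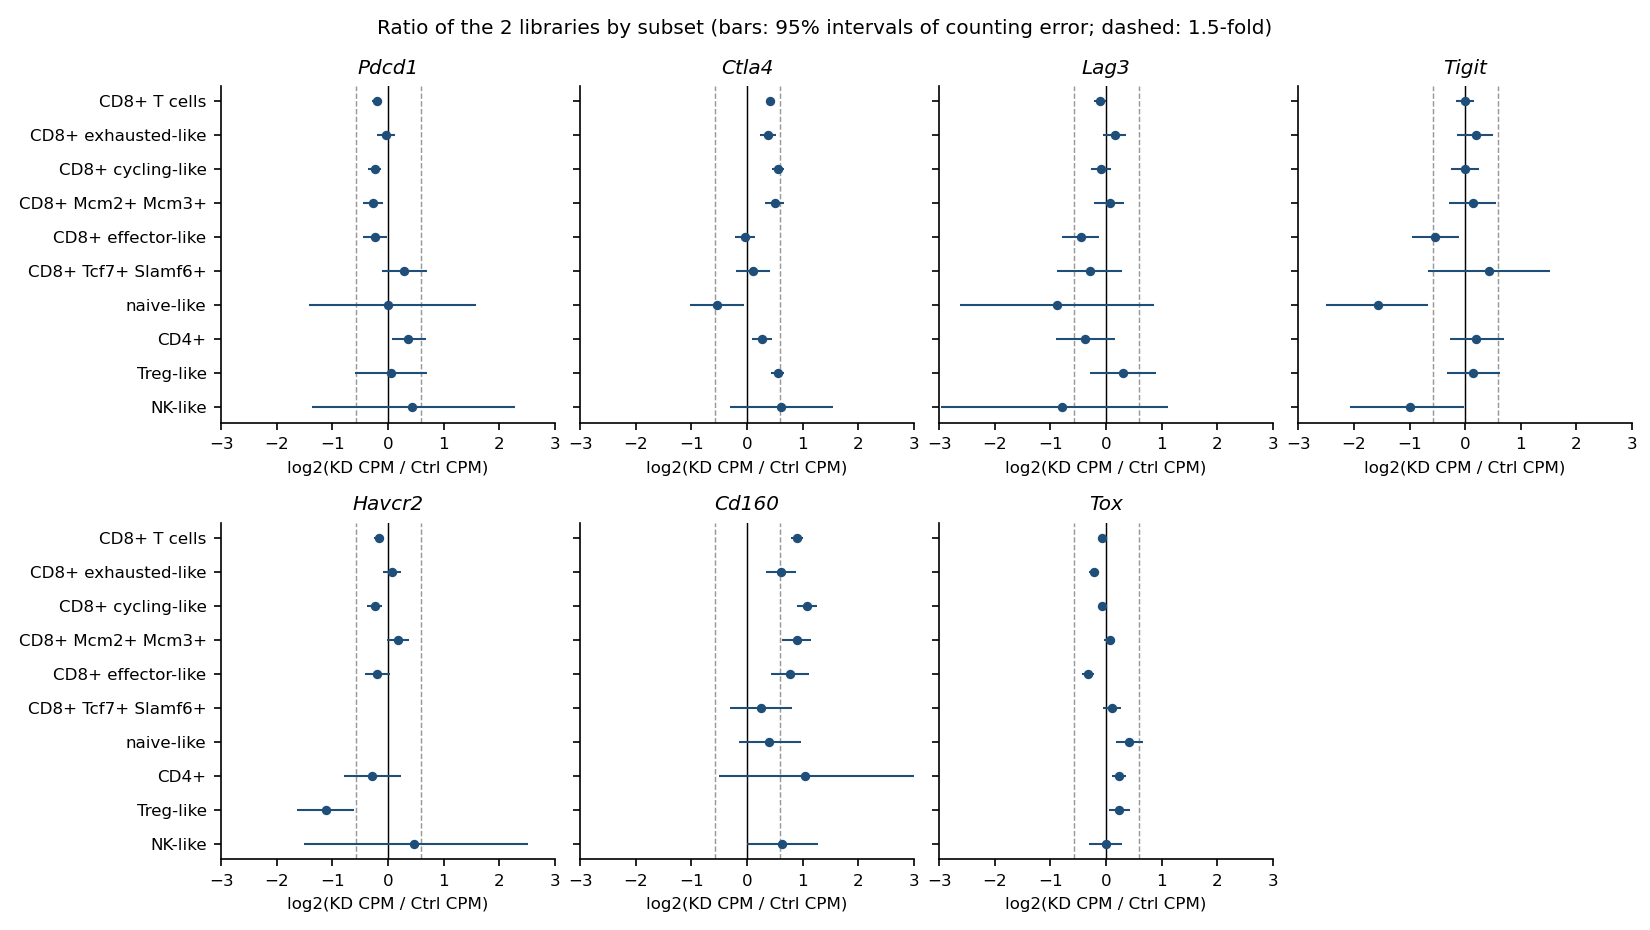
Log2 ratio of KD over Ctrl CPM (x axis) by subset for the 7 genes, with 95% intervals of counting error and dashed lines at 1.5-fold; ratios are drawn where both libraries together held at least 10 UMIs. Cd160 lies right of 0 in the 4 larger CD8+ subsets, at 0.62 to 1.07, Havcr2 lies at -1.12 in Treg-like cells, and the points of Pdcd1 in CD8+ T cells and in CD4+ cells lie on opposite sides of 0.

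Cycling cells were compared with other cells of their own subset, by counting a cell as cycling where at least 3 of 12 cell cycle genes had a UMI. Among exhausted-like cells of Ctrl, 130 were cycling and 591 were not. Lag3 was lower in the cycling ones, at a log2 ratio of -0.60 (-0.87 to -0.34), and so were Havcr2 (-0.43, interval -0.64 to -0.24) and Ctla4 (-0.21, interval -0.40 to -0.03). Pdcd1 (-0.05, interval -0.24 to 0.14), Tigit (0.10, interval -0.28 to 0.46), Cd160 (-0.23, interval -0.61 to 0.14) and Tox (-0.07, interval -0.16 to 0.02) had intervals that held 0. In KD only 24 exhausted-like cells were cycling, where Ctla4 (-0.58, interval -0.97 to -0.21) and Tox (-0.56, interval -0.80 to -0.32) were lower and Lag3 was not resolved (-0.18, interval -0.68 to 0.29). Cycling Treg-like cells, 27 in Ctrl and 25 in KD, held less Tigit in both libraries (-1.46, interval -2.23 to -0.72, and -1.36, interval -2.14 to -0.64), less Lag3 (-1.80, interval -2.84 to -0.83, and -0.85, interval -1.71 to -0.05) and less Ctla4 (-0.31, interval -0.50 to -0.11, and -0.84, interval -0.99 to -0.68). Tox was lower in both as well (-0.81, interval -1.11 to -0.51, and -0.78, interval -1.04 to -0.51), and Pdcd1 in Ctrl (-1.26, interval -2.29 to -0.27). Pdcd1 in KD and Havcr2 in both had negative ratios with intervals that held 0. Effector-like cells, 25 of them cycling in Ctrl and 22 in KD, gave -0.49 (-1.18 to 0.12) and -1.02 (-1.99 to -0.19) for Pdcd1. For Tox they gave -0.48 (-0.79 to -0.19) and -0.04 (-0.35 to 0.26). CD4+ cells of KD, 20 of them cycling, gave -0.66 (-1.28 to -0.10) for Pdcd1 and -0.25 (-0.48 to -0.04) for Tox. The other genes had intervals that held 0 in effector-like and CD4+ cells. Cycling cells hold more UMIs in all, the cycling-like subset having medians of 12432 and 10500 UMIs against 6348 and 6972 in exhausted-like cells, and CPM is a share of that total.

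Detection per cell was compared after every cell was thinned to 1500 UMIs, since deeper cells show more genes. In CD8+ T cells a UMI of Pdcd1 was found in 31.9% (30.1 to 33.7) of 2531 cells in Ctrl and 26.3% (23.6 to 29.2) of 999 in KD, a difference of -5.56 percentage points (-8.77 to -2.22). Cd160 went from 9.8% (8.67 to 11) to 15.3% (13.1 to 17.7), a difference of 5.52 percentage points (3.09 to 8.12), and Ctla4 from 28.4% (26.7 to 30.2) to 33.2% (30.3 to 36.3), 4.79 percentage points (1.42 to 8.23). Havcr2 stood at 27.8% and 24.3%, Lag3 at 17.3% and 14.8%, Tigit at 7.78% and 9.11%, and Tox at 70.8% and 68.4%. Without thinning the Pdcd1 shares were 76.2% and 68.3%. B cells, which should hold none of these receptors at a high level, gave 1.22% and 0.245% for Pdcd1, 1.63% and 2.33% for Ctla4 and 1.63% and 1.23% for Havcr2, with medians of 2579 and 2597 UMIs before thinning against 7436 and 6936 in CD8+ T cells. Macrophages or monocytes gave 14.2% and 12.4% for Havcr2 and at most 1.12% for any other of the 7 genes.

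Against B cells of the same library, the intervals of naive-like cells stood apart in both libraries for Ctla4, Cd160 and Tox, and those of NK-like cells for Cd160 and Tox. Tigit in NK-like cells, at 6.25% (2.9 to 11.5) and 2.63% (0.546 to 7.5), overlapped the 0.816% and 0.245% of B cells. Without thinning the intervals stood apart. NK-like cells then gave 17.1% (11.5 to 24) in Ctrl and 10.4% (5.51 to 17.5) in KD. B cells gave 1.09% (0.225 to 3.14) and 0.674% (0.248 to 1.46). Median UMIs were 3592 and 4160 in NK-like cells against 2579 and 2597 in B cells. Pdcd1 was found in 0.51% (0.0129 to 2.81) and 1.15% (0.314 to 2.92) of naive-like cells, which reads as background. Cd160 was found in 6.25% (2.9 to 11.5) and 8.77% (4.29 to 15.5) of NK-like cells and in 32.3% (23.3 to 42.5) of the ILC1-like cells of KD. Havcr2 was found in 2.3% (0.28 to 8.06) and 2.08% (0.0527 to 11.1) of Tcf7+ Slamf6+ cells, near its share in B cells, while Pdcd1 was found in 26.4% (17.6 to 37) and 27.1% (15.3 to 41.8) of them. Ctla4 was found in 78.1% (66.9 to 86.9) of Treg-like cells of Ctrl and 91.5% (84.8 to 95.8) of those of KD, and Havcr2 in 23.3% (14.2 to 34.6) and 8.55% (4.17 to 15.2), a difference of -14.7 percentage points (-26.3 to -4.29).

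Co-detection was counted over the 6 receptors, leaving out Tox. Of the thinned CD8+ T cells, 10.7% (9.57 to 12) showed 3 or more receptors in Ctrl and 11.3% (9.41 to 13.4) in KD, a difference of 0.565 percentage points (-1.65 to 2.97), and the mean was 1.23 receptors per cell in each. Exhausted-like cells showed the most, with 19.2% (16.4 to 22.2) in Ctrl and 30.4% (23.5 to 37.9) in KD, a difference of 11.2 percentage points (4.06 to 19). At 3000 UMIs the shares were 48.9% (45.1 to 52.6) and 51.5% (43.6 to 59.4), a difference of 2.65 percentage points, and by marker UMIs at 1500 UMIs the difference was 1.39. Cycling-like cells stood at 6.14% (4.59 to 8.02) and 6.99% (4.48 to 10.3), Mcm2+ Mcm3+ cells at 11.6% (8.59 to 15.3) and 13.5% (8.59 to 19.96), and effector-like cells at 10.02% (7.46 to 13.1) and 12.4% (8.89 to 16.7). Treg-like cells stood at 15.1% (7.77 to 25.4) and 11.1% (6.05 to 18.3), and CD4+ cells at 8.46% (4.3 to 14.6) and 7.21% (4.67 to 10.5). In B cells of Ctrl, 1 of 245 did. Without thinning the CD8+ shares were 74.5% (72.8 to 76.2) and 68.5% (65.5 to 71.3).

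**Figure D3:**
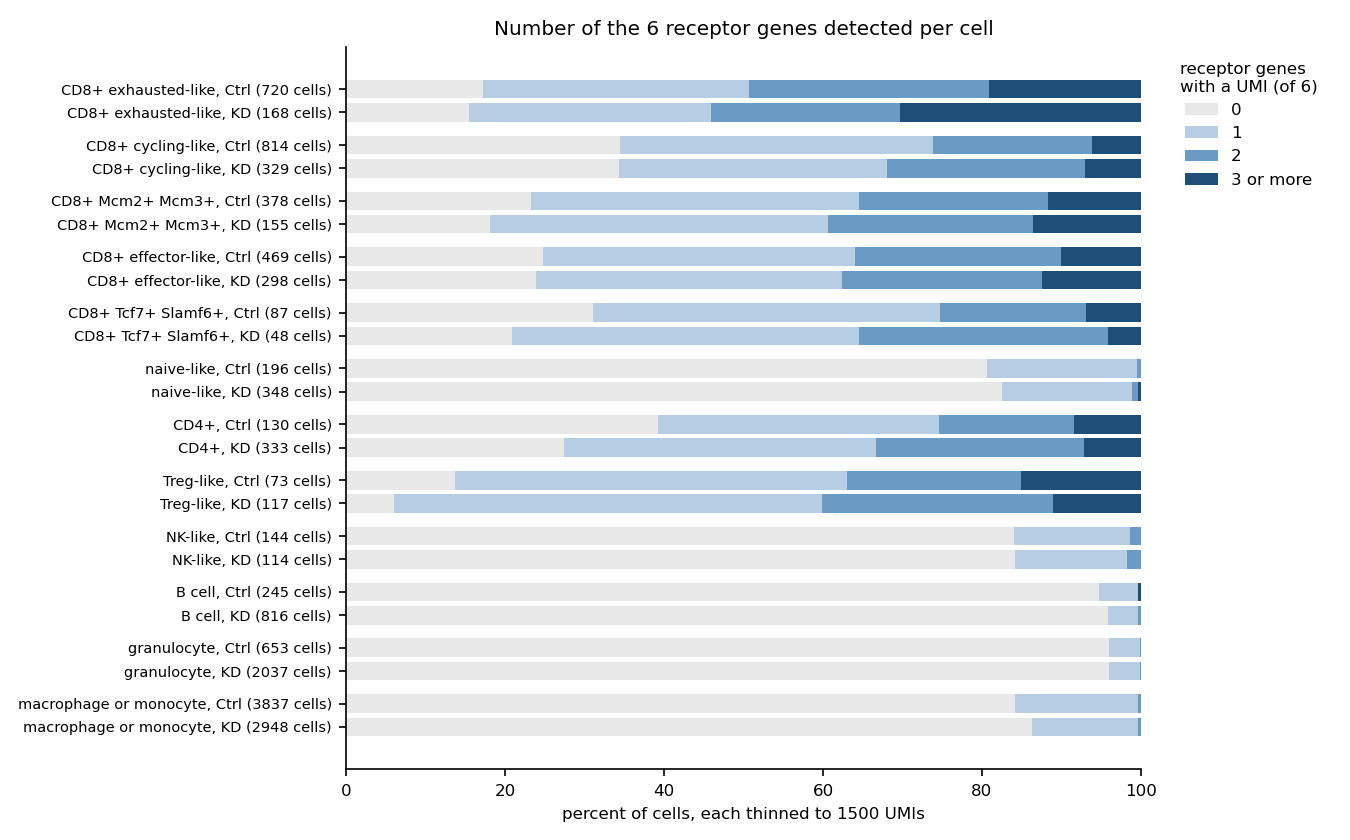
Number of the 6 receptor genes with a UMI per cell, as the percent of cells (x axis) in each subset and library after thinning to 1500 UMIs, from grey (0) to dark blue (3 or more). Exhausted-like cells have the widest dark band, 19.2% in Ctrl and 30.4% in KD, while 84% and 84.2% of NK-like cells and 94.7% and 95.8% of B cells show none.

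Pairs of receptors were counted in the thinned CD8+ T cells. Over the 15 pairs the observed share of double-positive cells divided by the product of the single shares had a median of 1.04 in Ctrl and 1.07 in KD. The highest was for Ctla4 and Tigit in both, at 1.30 (73 cells, with 56.0 given by the product) and 1.39 (42 cells, with 30.2). Lag3 and Havcr2 stood at 1.18 and 1.19. The lowest was Tigit and Cd160 in Ctrl, at 0.88, and Ctla4 and Cd160 in KD, at 0.75 (38 cells, with 50.8 given by the product). In Ctrl that last pair stood at 1.01. In exhausted-like cells the medians were 1.06 and 1.16, over the pairs with at least 5 cells given by the product.

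Over all described T and NK cells the ratios differed from those within subsets. Pdcd1 measured 239 CPM in Ctrl and 176 CPM in KD, a log2 ratio of -0.44, Lag3 116 and 84.5 CPM (-0.46), and Havcr2 201 and 133 CPM (-0.60). The makeup had moved as well, with exhausted-like cells giving 19.3% of the UMIs in Ctrl and 9.21% in KD, cycling-like cells 42.5% and 28.7%, CD4+ cells 2.19% and 11.4%, and naive-like cells 3.32% and 11.5%. With KD levels placed on the makeup of Ctrl, the ratios became -0.13 for Pdcd1, -0.02 for Lag3 and -0.06 for Havcr2. With Ctrl levels on the makeup of KD they were -0.35, -0.36 and -0.44. For these 3 genes, as arithmetic, the change of makeup gave the larger part. Cd160 was the reverse, at 0.67 in all, 0.87 with KD levels on the makeup of Ctrl and -0.17 with only the makeup changed. Ctla4 stood at 0.63 in all, and at 0.42 and 0.27 in these settings. Tigit stood at 0.01, 0.05 and 0.03 and Tox at -0.13, -0.08 and -0.11. The share of each subset in 1 pool of 3 mice has no replicate, so these makeups describe the libraries. In these exchanges the KD level of Gzmc+ Gzmd+ cells came from 1 cell. The Ctrl levels of Il4+ Zbtb16+ and ILC1-like cells came from 5 and 15 cells.

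**Figure D4:**
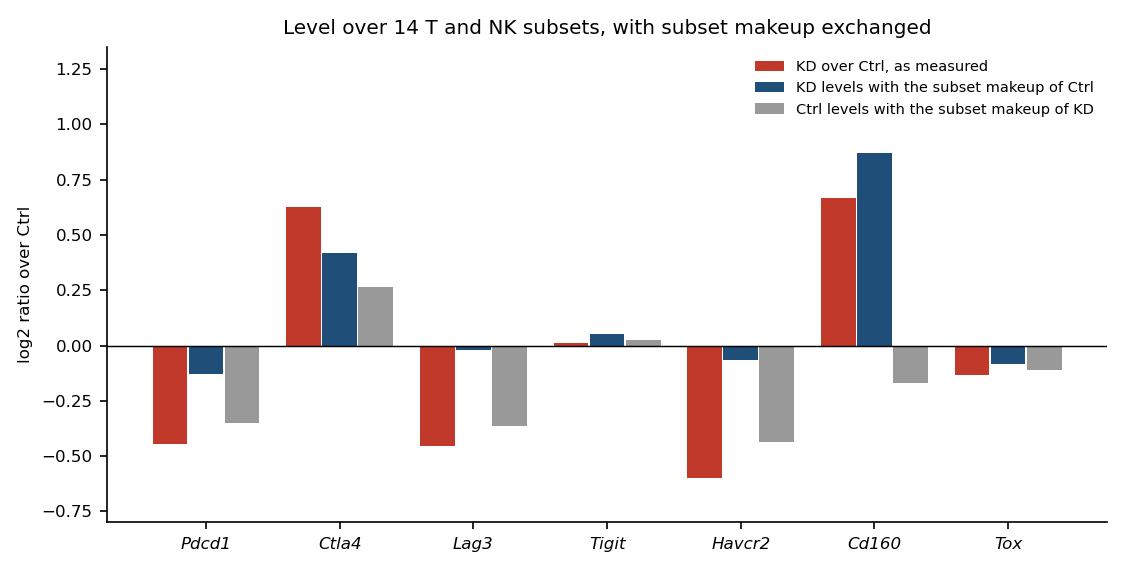
Log2 ratio over Ctrl (y axis) of each gene's level across the 14 subsets, as measured in KD (red), with KD levels on the subset makeup of Ctrl (blue) and with Ctrl levels on the makeup of KD (grey). Grey and red bars are alike for Pdcd1, Lag3 and Havcr2, while for Cd160 the blue bar, at 0.87, is the tallest.

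Patterns across subsets were compared by correlation. Over 20 profiles (a subset in 1 library, at least 50 cells each), Pearson's r of log2(CPM + 1) was 0.92 between Pdcd1 and Lag3, 0.92 between Pdcd1 and Tox and 0.85 between Pdcd1 and Havcr2. It was 0.74 between Ctla4 and Tigit and 0.66 between Pdcd1 and Ctla4. Cd160 stood apart, at -0.03 with Pdcd1, -0.11 with Lag3 and -0.59 with Ctla4. Among all named genes with at least 200 UMIs, those most like Cd160 were the NK receptor genes Klrc1 (0.94), Klrc2 (0.92) and Klrd1 (0.89). Among those most like Pdcd1 were Uhrf2 and Zdhhc2 (0.95 each), and Uhrf2 also led for Tox (0.90), followed by Chst2 and Runx2 (0.89 each). Lag3 was most like Chic2, Runx2 and Alcam (0.96, 0.96 and 0.95), and Havcr2 like Srp14, Tmem134 and S100a4 (0.96, 0.93 and 0.93). Ctla4 was most like Gpi1, Tank and Sdcbp2 (0.92, 0.92 and 0.90) and Tigit less closely like Vps54, Runx2os1 and Cyfip1 (0.85, 0.84 and 0.83). With 10 CPM in place of 1 CPM added before the log, all 3 names stayed for Pdcd1 and Tox, 2 for Ctla4, Tigit and Havcr2, and 1 for Lag3 and Cd160. Profiles of 1 library share its depth, so these are descriptions.

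Genes around the 7 were taken from 6 lists. Of 15 other inhibitory receptors, all had at least 50 UMIs in CD8+ T cells, 1 was past 1.5-fold and higher in KD and none lower, against 9.34% of all genes in either direction, and the median log2 ratio was 0.26 against -0.03 over all genes. The highest were Lair1, a collagen receptor (4.25 CPM in Ctrl and 6.59 CPM in KD, log2 ratio 0.63, interval 0.12 to 1.14), and Cd5, which restrains T cell receptor signals (65.5 CPM in Ctrl and 88.6 CPM in KD, log2 ratio 0.44, interval 0.30 to 0.57), and the lowest Vsir, which encodes VISTA (-0.23), and Nt5e, which encodes CD73 (-0.18). Of 8 costimulatory receptors 1 was past the fold, against the same 9.34% of all genes, and the median was 0.01. It was Cd40lg, low in both libraries (0.685 CPM in Ctrl and 4.35 CPM in KD, log2 ratio 2.67, interval 1.76 to 3.65). Cd40lg is also a leading gene of the CD4+ cells, which numbered 134 in Ctrl and 338 in KD. The part of stray CD4+ cells or their RNA in this ratio was not tested. The next highest costimulatory receptor was Cd226, the activating rival of Tigit (0.22), and the lowest were Tnfrsf9 (-0.25) and Tnfrsf4 (-0.18). Of 12 phosphatases and adaptors downstream of the receptors 11 had enough UMIs and none was past the fold. The extremes were Fyn (0.27) and Ptpn11 (0.16) at the top and Ptpn6, which encodes SHP-1 (-0.24), and Bag6 (-0.21) at the bottom.

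Of 15 exhaustion and effector transcription factors 2 were past the fold, against 9.34% of all genes in CD8+ T cells, and both were higher in KD. They were Tox2, a relative of Tox (1.46 CPM in Ctrl and 7.71 CPM in KD, log2 ratio 2.40, interval 1.76 to 3.06), and Maf (9.64 CPM in Ctrl and 21 CPM in KD, log2 ratio 1.13, interval 0.82 to 1.42), and the lowest were Hif1a (-0.45) and Irf4 (-0.21), with a median of -0.03. Of 12 progenitor and memory genes 7 were past the fold, all higher in KD, where 3.86% of all genes in CD8+ T cells were past it and higher, and the median was 0.84. Xcl1, a chemokine that attracts dendritic cells (93.7 CPM in Ctrl and 306 CPM in KD, log2 ratio 1.71, interval 1.62 to 1.79), was among the highest, and Bach2 (-0.05) and Il7r (0.29) were lowest. The Tcf7+ Slamf6+ subset made up 3.41% of the CD8+ T cells of Ctrl and 4.76% of those of KD. Within exhausted-like cells 5 of the 9 progenitor and memory genes with enough UMIs were past the fold and higher. Of all genes there 4.05% were, and the list had a median of 0.70. Of 12 effector genes 11 had enough UMIs and 3 were past the fold, all higher in KD, against the same 3.86% of all genes, with a median of -0.04. Gzma, a granzyme (320.3 CPM in Ctrl and 2389.5 CPM in KD, log2 ratio 2.90, interval 2.86 to 2.94), and the chemokine gene Ccl5 (0.65) were highest and Prf1, the gene of perforin (-0.50), and Ifng (-0.35) lowest. Effector-like cells, led by Gzma and Ccl5, made up 18.9% of the CD8+ T cells of Ctrl and 30.3% of those of KD. Exhausted-like cells made up 28.3% and 16.7%. The part of this makeup in the ratios of the lists was not tested. In Treg-like cells the other inhibitory receptors had a median of 0.08 and in CD4+ cells of -0.04, with 2 of 7 and 1 of 11 past the fold and higher in KD and 0 and 2 lower, against 19.8% and 11.7% of all genes there. The progenitor and memory list in CD4+ cells had 1 of 9 past the fold and higher and 4 of 9 lower, with a median of -0.26. Of all genes in those cells 5.88% were past the fold and higher and 5.77% lower.

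**Figure D5:**
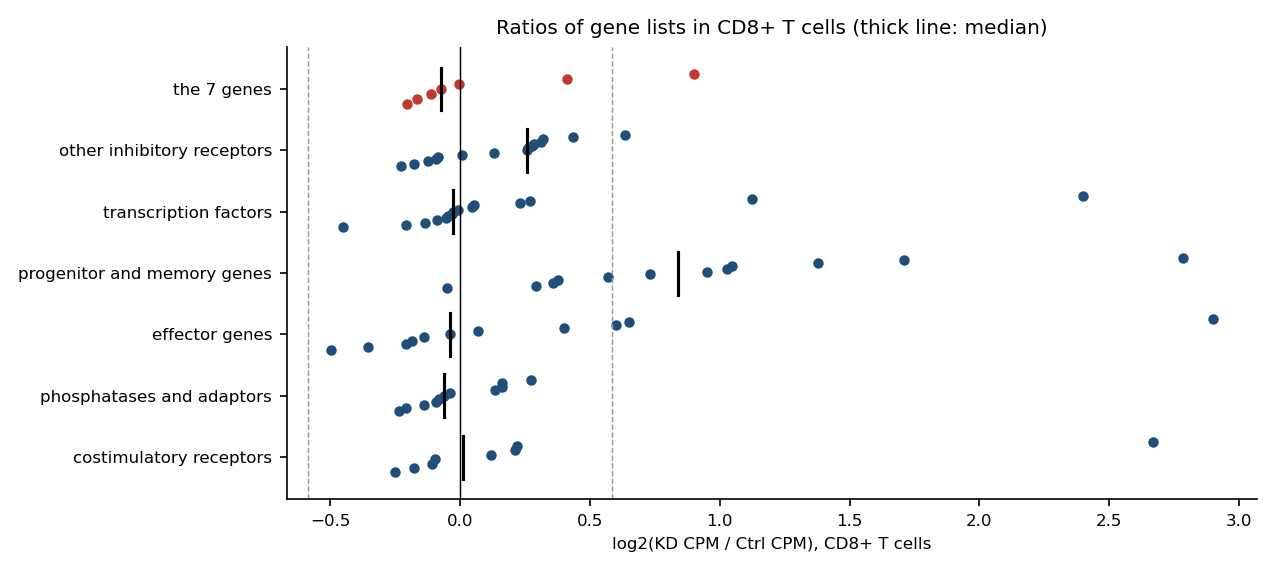
Log2 ratio of KD over Ctrl CPM (x axis) in CD8+ T cells for the 7 genes (red) and the genes of 6 lists (blue) with at least 50 UMIs; thick lines are medians and dashed lines 1.5-fold. Progenitor and memory genes lie furthest right, with a median of 0.84, and among the red points only Cd160 passes the dashed line.

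The smaller subsets completed the map of levels. Gzmc+ Gzmd+ cells of Ctrl held 299 CPM of Pdcd1, 123 CPM of Lag3, 28.6 CPM of Cd160 and 603 CPM of Tox from 421 UMIs. The Il4+ Zbtb16+ cells of KD, which express the factor of innate-like T cells, held 3 UMIs of Pdcd1, 0 of Lag3 (3 UMIs would be 7.87 CPM), 4 of Havcr2 and 3 of Tigit among 97 cells, and 73.4 CPM (48.8 to 106) of Cd160. After thinning, Ctla4 was found in 9.28% (4.33 to 16.9) of these cells and Tox in 14.4% (8.12 to 23), against 2.33% (1.41 to 3.61) of B cells of KD for each. ILC1-like cells of KD held 71.6 CPM (48.3 to 102) of Tigit and 119 CPM (88.5 to 157) of Ctla4, and 12 UMIs of Pdcd1. Gamma-delta-like cells, 23 and 14 in number, held 14 and 24 of Ctla4 and 17 and 7 of Pdcd1. The Ifit1+ Ifit3+ cells held 24 and 4 UMIs of Pdcd1 in 17 and 18 cells.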

How the data were processed

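CD45+ cells of liver metastases were read in 2 libraries, Ctrl and KD, grouped by the hairpin in the labels. What the authors deposited are raw UMI counts, a matrix of genes by cells for each library, with no normalization. The submitters' processing notes name Cell Ranger 7.1.0, Seurat 5.1.0, R 4.4.1 and GRCm39. Here, cells with at least 200 genes, at most 6000 genes, 30000 UMIs and 10% mitochondrial UMIs were clustered in Seurat 5.3.0 (2000 variable genes, 20 components, resolution 0.5), and T and NK clusters again (resolution 1.0) without the 7 genes and receptor segments. A cluster of 162 and 149 cells with mixed leading genes, sub-clusters of few UMIs (377 and 118 cells) and 1 with myeloid genes (102 and 69 cells) were left out. Scanpy 1.11.5 ran Scrublet, and 1707 top-scoring cells were left out as an alternative only. Names followed fixed markers, except Tcf7+ Slamf6+, Mcm2+ Mcm3+, Gzmc+ Gzmd+, Il4+ Zbtb16+ and Ifit1+ Ifit3+, given after the clusters were seen from their leading genes.

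UMIs were summed per subset and library and divided by the subset total (CPM). Intervals are exact Poisson for levels, conditional binomial for ratios, Clopper-Pearson for shares and Newcombe for differences of shares. Ratios between the libraries needed 20 cells and 10 UMIs over both, background genes 50 UMIs. Subsets with few cells in either library were given by level only. Pseudocounts of 1 CPM and 10 CPM served only for likeness. TMM (edgeR 4.0.16) and DESeq2 1.42.0 size factors, computed on the summed counts, were used as scalings and not as tests. Sums and ratios were tested on simulated data. Named list genes are the 2 highest and 2 lowest ratios of each list in CD8+ T cells, and like genes the 3 highest r, of which some are not reported here. The members and lists were chosen with earlier results of these data known.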

Additional observations from a re-analysis of the deposited data

Results flagged for a closer look

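In 5 cases a gene differed between the libraries in opposite directions in CD8+ T cells and in another subset, each beyond its own counting interval. With 1 library per group the difference between the subsets was not tested, and the values below are differences of log2 ratios (KD over Ctrl). Pdcd1 was lower in KD in CD8+ T cells (-0.21, interval -0.28 to -0.13) and higher in CD4+ cells (0.36, interval 0.06 to 0.67), a gap of 0.57 between the subsets. Ctla4 was higher in CD8+ T cells (0.41) and lower in naive-like cells (-0.54), a gap of -0.95. Tox was lower in CD8+ T cells (-0.07) and higher in naive-like cells (0.42), CD4+ cells (0.23) and Treg-like cells (0.24), with gaps of 0.49, 0.30 and 0.31. By marker UMIs Tox in naive-like cells turned to -0.14, as a mean over cells Tox in Treg-like cells turned to -0.0093, and under a stricter cell filter Ctla4 in naive-like cells was -0.062. The granulocyte list was higher in KD in each of these subsets, at 57.4 and 272 CPM in CD4+ cells and 51.3 and 301 CPM in naive-like cells, and its part was not tested.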

How the results depend on the processing

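No paired analysis was possible because each group has 1 library, and for the same reason none could be left out. Ratios of the 7 genes by subset were recomputed under 11 other settings and 1 chosen after seeing the data, which left out cells whose barcode is in both libraries. Of 774 values, 747 stayed within the counting interval of the reported ratio. That count includes settings that changed little, such as TMM, DESeq2 size factors and the shared barcodes, where all 67 values stayed in each. With subsets drawn from marker UMIs 39 of 53 stayed, 13 fell outside and 1 that had been past 1.5-fold changed sign. Of 32 ratios whose interval excluded 0, 5 changed sign, each under 1 setting. With subsets drawn from marker UMIs Tigit in NK-like cells was 0.18, Tox -0.14 in naive-like and 0.0013 in cycling-like cells, and Havcr2 0.013 in cycling-like cells, and as a mean over cells Tox in Treg-like cells was -0.0093. The main ratios in cycling-like cells were -0.07 for Tox and -0.24 for Havcr2. In CD8+ T cells Cd160 ranged from 0.80 to 0.93 and Pdcd1 from -0.22 to -0.18. With marker UMIs Ctla4 was 0.32 and Havcr2 -0.060, and as a mean over cells of CPM Ctla4 was 0.32 and Lag3 -0.23. The KD minus Ctrl share of exhausted-like cells with 3 or more receptors was 11.2 percentage points, 2.65 at 3000 UMIs and 1.39 with marker UMIs, and that of CD8+ T cells, 0.565, was -6.03 without thinning. Genes past 1.5-fold in CD8+ T cells numbered 1113, 3401 at 10 UMIs or more and 11746 with any UMI. DESeq2 size factors shifted all ratios in CD4+ cells by 0.103, and no other scaling shifted a subset by more than 0.088. Tox in effector-like cells ranged from -0.35 to -0.29 and Havcr2 in Treg-like cells from -1.27 to -0.88. Subsets from marker UMIs had no ILC1 class, so their NK-like cells can include ILC1-like cells. The causes of these changes were not tested. Few UMIs limit the ratios of Pdcd1, Lag3 and Havcr2 in NK-like and naive-like cells, at most 13 per library.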
